A study of Mus musculus with 16 samples.

Results

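The 10 mouse genes of heme breakdown and iron handling described here, *Hmox1*, *Blvrb*, *Hpx*, *Slc11a1*, *Slc40a1*, *Cp*, *Trf*, *Tfrc*, *Fth1* and *Ftl1*, were followed in the unlesioned neocortex after removal of the opposite cortex. The genes were chosen by name, with earlier results of these data known. All 10 were found among the 20145 named genes of the array through the RefSeq accession of their probes, with 14 probes in total. The tissue was the right neocortex rostral from bregma of C57BL/6J mice whose left cortex had been aspirated at postnatal day 7 (neonatal brain hemisuction, NBH) or at 8 to 12 weeks of age (adult brain hemisuction, ABH). The sample labels write these groups as NBI and ABI. Control animals (NC) were taken at P7, at P14, at P35 and when 10 weeks old. The surgery pools were NBH taken 1 week (P14) and 4 weeks (P35) after the operation, and ABH taken 1 week (11 weeks old) and 4 weeks (15 weeks old) after it. RNA of 4 male animals was pooled in each group, and each of the 8 pools was labeled with Cy3 for 1 array and with Cy5 for another. The comparisons ask how gene expression in the intact hemisphere differs after injury of the young and of the adult brain. Both ABH pools were older than the 10 weeks control they were compared with.

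Heme oxygenase opens the heme ring and releases iron, carbon monoxide and biliverdin, which biliverdin reductase turns into bilirubin. The iron is stored in ferritin, or leaves the cell through ferroportin with the help of the ferroxidase ceruloplasmin, and travels on transferrin, which cells take up through the transferrin receptor. Phagocytes that digest red cells or debris run this route at a high rate, and in the brain oligodendrocytes are the main makers of transferrin and astrocytes of ceruloplasmin.

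The levels below are log2 signals relative to the 75th percentile of each array, so that a negative level lies under that percentile, and the level of a probe says nothing about that of another probe. Over the 16 arrays the median spot intensity was 192.5 to 253 over a median background of 59 to 72, and 60.2% to 72.2% of the spots were well above background. Markers of cortical neurons (8 of 8 genes) were well above background in all 8 pools. Since the arrays of a pool carry the same RNA, the SD given is a technical error between the dyes, and no test between groups was possible. On either chip the controls occupied row 1 and the surgery pools row 2, so position and surgery cannot be told apart. A gene was called higher at 1.5-fold or more, and lower at 0.75-fold or less, with both dyes. Since the tissue is a mixture, a change in the number of cells of a type and a change in RNA per cell cannot be told apart.

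Of the 8 genes whose level could be measured, 3 rose in ABH 1 week, namely *Slc11a1*, *Hmox1* and *Trf*, and none fell. In that comparison 4.73% of the 16310 genes compared were called higher and 5.73% lower, which are read beside 3 of 8 and 0 of 8 genes. The median log2 fold change of the 8 genes was 0.56, and that of all genes compared was −0.05. In NBH 1 week no gene of the group was called, against 0.434% of all genes called higher and 0.408% lower. None was called in NBH 4 weeks (0.177% of all genes higher, 0.744% lower) or in ABH 4 weeks (0.43% higher, 0.197% lower) either. With a single dye in place of both, the shares of all genes called higher or lower in these 3 comparisons lay between 0.967% and 5.54%. In these 3 comparisons the medians of the 8 genes were 0.02, 0.04 and 0.22 on the log2 scale, beside 0.07, 0.04 and 0.06 for all genes compared.

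**Figure D1:**
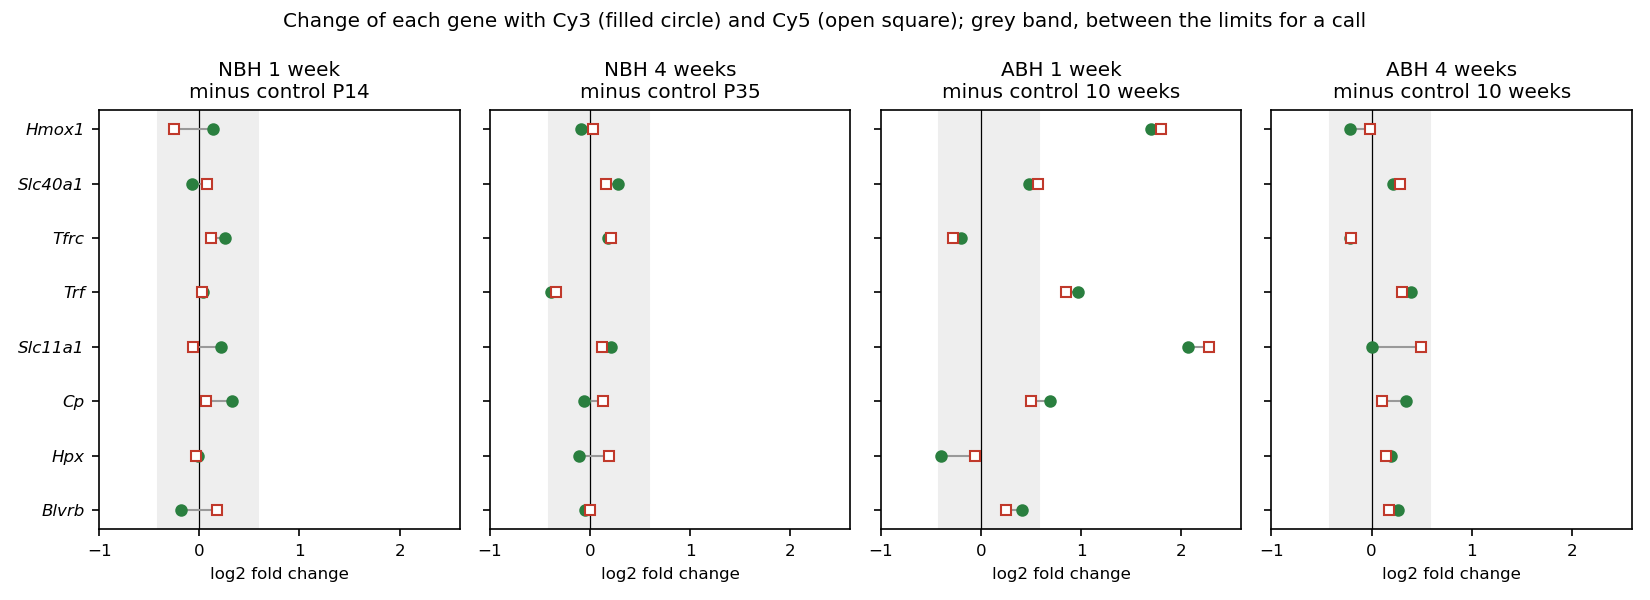
Log2 fold change (horizontal axis) of each of the 8 measured genes in the 4 comparisons, with Cy3 as filled circles and Cy5 as open squares, 1 array each, joined by a line, and the range between the limits for a call in grey. *Slc11a1*, *Hmox1* and *Trf* lie past the upper limit with both dyes in ABH 1 week, where *Cp* passes it with Cy3 alone (0.69 and 0.50), and no gene lies past a limit with both dyes elsewhere.

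*Slc11a1* encodes NRAMP1, the pump that moves iron and manganese out of the phagosome of macrophages, and it had the highest fold change of the group. Its level was −1.72 (Cy3) and −2.09 (Cy5) in the 10 weeks control and 0.34 and 0.18 in ABH 1 week. Among the other 7 pools the means ran from −2.20 in control P7 to −1.60 in NBH 4 weeks, so that ABH 1 week stood apart from all of them. On the log2 scale it rose by 2.17 ± 0.15 (SD between the dyes), or 4.50-fold, and 0.374% of the genes compared had a higher mean. By 4 weeks after ABH the level was −1.72 and −1.60, with a log2 fold change of 0.25 ± 0.35. In NBH 1 week and NBH 4 weeks the values were 0.08 ± 0.20 and 0.16 ± 0.07. The change in ABH 1 week exceeded that in NBH 1 week by 2.09 ± 0.35 on the log2 scale, a difference that was between 1.84 and 2.63 under the alternatives that keep the control pools.

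The bases before the transcript start of *Slc11a1* in the RefSeq promoter table are shown because it had the highest fold change of the group. They are the 250 bases at chr1:74374953-74375202 (plus strand, GRCm38.p6, from RefSeq), a build other than that of the array files. The gene record of RefSeq starts earlier, at base 74375014, so that 189 of these bases lie within it. No part is in capitals because none of the motifs searched was found.
Slc11a1: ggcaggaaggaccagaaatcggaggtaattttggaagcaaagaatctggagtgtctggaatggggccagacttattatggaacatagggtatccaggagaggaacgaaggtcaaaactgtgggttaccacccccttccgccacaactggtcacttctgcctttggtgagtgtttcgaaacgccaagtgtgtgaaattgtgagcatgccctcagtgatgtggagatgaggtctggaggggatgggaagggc
Both motifs were searched in windows of 300 bases, from 250 before to 50 after the annotated start. The core of the antioxidant response element, the site of Nrf2 and *Bach1* (TGACNNNGC, both strands), lay in 12.4% of 32851 promoters. The loop of the iron responsive element (a C, any 5 bases, then CAGTGN, sense strand) lay in 10.4%. It was searched as letters and not as an RNA fold. Of the 300 bases 250 lie before the transcript, so these windows do not show whether an RNA holds the element. The table held windows for 7 of the 10 genes (*Fth1*, *Ftl1*, *Tfrc*, *Slc11a1*, *Cp*, *Hpx* and *Blvrb*). *Hpx* alone had a match to the first motif, at 95 bases before its start, shown here from chr7:105600191-105600220 (gene on the minus strand) with the match in capitals.
Hpx: ccaatattgGCATAGTCAtggaagacaaat
*Hpx* also had 1 match to the second motif. These 12 bases began 13 bases before the transcript start and so lay outside the transcript. The *Slc11a1* window had no match to either motif.

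*Hmox1* encodes heme oxygenase 1, the inducible enzyme that opens the heme ring. Its probe with the highest signal gave −0.08 (Cy3) and −0.19 (Cy5) in the 10 weeks control and 1.62 and 1.61 in ABH 1 week. The other 7 pools lay between −0.53 (control P7) and −0.13 (control 10 weeks), and no neighbors in that order differed beyond the spread between the dyes. The log2 fold change in ABH 1 week was 1.75 ± 0.07, or 3.36-fold, and 0.858% of the genes compared had a higher mean. In ABH 4 weeks the level was −0.30 and −0.20, with a log2 fold change of −0.12 ± 0.14. ABH 1 week was thus 3.64-fold above ABH 4 weeks, a pool of the same row of the chips. In NBH the log2 fold changes were −0.05 ± 0.27 at 1 week and −0.03 ± 0.08 at 4 weeks.

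The rise of *Hmox1* was seen at 1 of its 2 probes. The other probe, which carries the same accession and was well above background on all 16 arrays, had a mean level of −1.12 in the 10 weeks control and −0.98 in ABH 1 week. Its log2 fold change there was 0.14 ± 0.15, against 1.75 at the first probe, and 0.15 ± 0.02 in ABH 4 weeks. In NBH it gave −0.16 ± 0.11 and −0.07 ± 0.20. The mean over both probes gave 0.94 in ABH 1 week, which was still past the limit with both dyes. The cause of the difference between the probes was not tested.

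**Figure D2:**
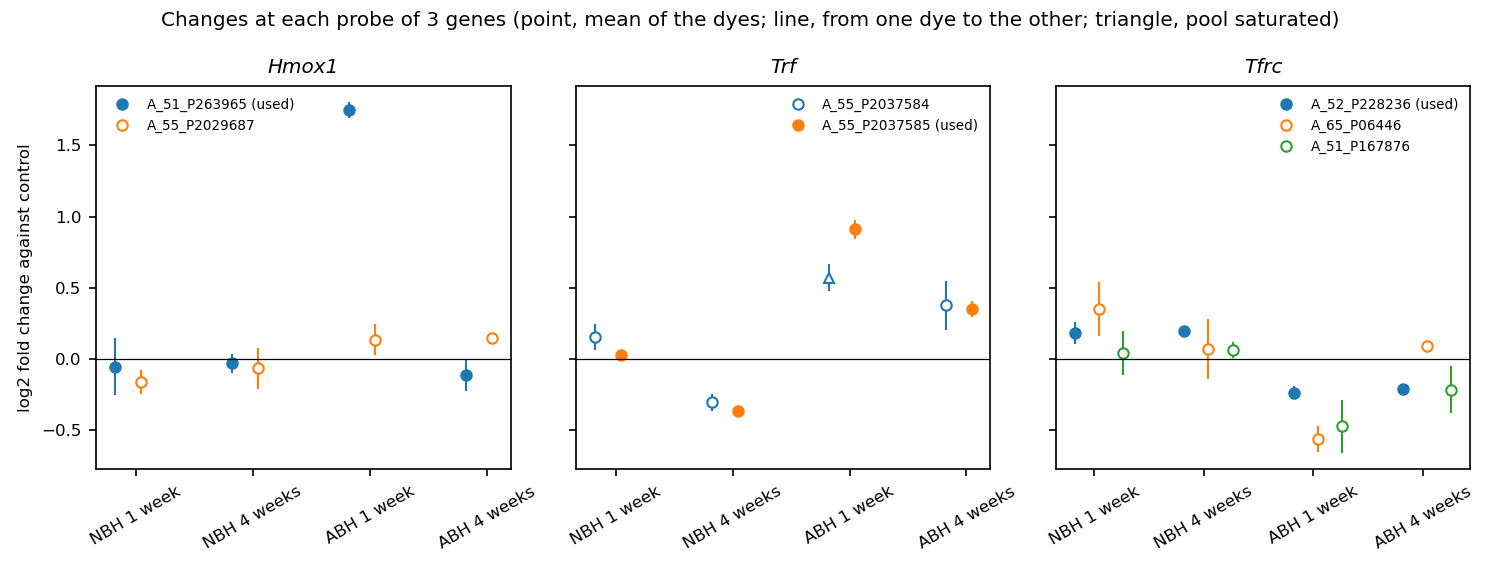
Log2 fold change against control (vertical axis) at each probe of *Hmox1*, *Trf* and *Tfrc* in the 4 surgery pools, with the mean of the dyes as a point (filled for the probe used) and a line from one dye to the other. In ABH 1 week the *Hmox1* probes give 1.75 and 0.14, the *Trf* probes 0.91 and at least 0.57 (saturated in that pool, triangle), and the *Tfrc* probes −0.24, −0.56 and −0.47.

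*Blvrb*, a biliverdin reductase that acts after heme oxygenase, was not called in any comparison. Its level was 0.63 (Cy3) and 0.64 (Cy5) in the 10 weeks control, 1.04 and 0.89 in ABH 1 week, and 0.90 and 0.81 in ABH 4 weeks. The ABH pools had the highest levels of all 8 pools, which gave 0.33 ± 0.11 and 0.22 ± 0.06 as log2 fold changes. After NBH the values were −0.01 ± 0.25 and −0.02 ± 0.03. *Hpx*, hemopexin, which binds free heme in plasma, was near the background, with mean levels of −3.49 to −1.96 over the pools, and on 1 array of control P7 it was not well above background. Its log2 fold changes were −0.02 ± 0.02 and 0.04 ± 0.21 after NBH (1 and 4 weeks) and −0.23 ± 0.25 and 0.17 ± 0.03 after ABH.

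*Trf* encodes transferrin, which carries iron in plasma and in the interstitial fluid of the brain. At the probe that was not saturated on any array, its level was 4.17 (Cy3) and 4.35 (Cy5) in the 10 weeks control, and 5.14 and 5.20 in ABH 1 week, the highest of all pools. The log2 fold change was 0.91 ± 0.09, or 1.88-fold, and 2.91% of the genes compared had a higher mean. In ABH 4 weeks the level was 4.57 and 4.65, with a log2 fold change of 0.35 ± 0.07, short of the limit. In NBH 1 week the level hardly differed from its control (3.32 and 3.38 against 3.29 and 3.35, log2 fold change 0.03 ± 0.01). In NBH 4 weeks it was 4.14 and 4.34 against 4.53 and 4.68 in the P35 control. This difference, −0.36 ± 0.04 on the log2 scale, did not reach the lower limit, and 1.7% of the genes compared had a lower mean. The brighter *Trf* probe was saturated on both arrays of ABH 1 week, where its change was thus at least 1.49-fold, which does not settle whether it passed the limit. In NBH 4 weeks and ABH 4 weeks, where it was not saturated, it gave −0.30 ± 0.07 and 0.38 ± 0.23. At 4 weeks the change in ABH exceeded that in NBH by 0.71 ± 0.10 on the log2 scale. Markers of the striatum, which lies under the cortex, moved the same ways. Of 8 striatal genes 5 were called lower in NBH 4 weeks (median −0.57), among them *Drd1*, a dopamine receptor, at −0.81 ± 0.00 and *Tac1*, a neuropeptide precursor, at −0.73 ± 0.03, and 5 were called higher in ABH 4 weeks (median 0.75). In NBH 1 week and ABH 1 week none was called, with medians of −0.37 and −0.02. The part of striatal tissue in the *Trf* values was not tested.

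The oligodendrocyte markers gave other values than *Trf* in ABH 1 week. Of 9 such markers measured there none was called higher and 1 lower (*Ermn*, a cytoskeletal protein of myelinating cells, −0.75 ± 0.12), with a median log2 fold change of −0.03 beside 0.91 for *Trf*. In NBH 4 weeks the median of the same markers was −0.33, beside −0.36 for *Trf*, and 1 was called lower (*Mal*, a myelin proteolipid, −0.49 ± 0.03). The choroid plexus epithelium makes transferrin too, and its markers were called higher for 8 of 10 genes in NBH 1 week and 9 of 10 in ABH 4 weeks, where *Trf* gave 0.03 and 0.35. In NBH 4 weeks 4 of 10 were called higher (median 0.59), where *Trf* gave −0.36. In ABH 1 week 1 of 8 measured choroid plexus markers was higher (*Aqp1*, a water channel) and 1 lower (*Slc4a5*, a bicarbonate transporter), with a median of −0.05. The part of these cells in the *Trf* values was not tested.

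*Tfrc* encodes the transferrin receptor, through which cells take up transferrin. Its level was 1.49 (Cy3) and 1.54 (Cy5) in the 10 weeks control, 1.30 and 1.26 in ABH 1 week, and 1.28 and 1.33 in ABH 4 weeks. These were the lowest levels of all 8 pools, and the ABH pools did not differ from each other beyond the spread. In NBH 1 week it was 2.22 and 2.10 against 1.97 and 1.99 in control P14, the highest level of all. The log2 fold changes were 0.18 ± 0.10 (1 week) and 0.20 ± 0.02 (4 weeks) after NBH, and −0.24 ± 0.05 and −0.21 ± 0.01 after ABH, none of them past a limit. The change in ABH was below that in NBH by −0.42 ± 0.05 at 1 week and −0.41 ± 0.01 at 4 weeks. The values of NBH and of ABH 1 week changed sign with the scaling between arrays, whereas at this probe, and with the mean over all probes, their difference stayed negative under the alternatives that keep the control pools, between −0.62 and −0.06 at 1 week and between −0.43 and −0.22 at 4 weeks. In ABH 1 week the other *Tfrc* probes gave −0.56 ± 0.12, past the lower limit with both dyes, and −0.47 ± 0.25, where the pool was well above background on 1 of its 2 arrays. At 4 weeks they gave 0.09 ± 0.04 and −0.22 ± 0.22. The difference between ABH and NBH was −0.91 ± 0.14 and −0.52 ± 0.04 at these probes at 1 week. At 4 weeks it was 0.02 ± 0.25 and −0.28 ± 0.30, so that neither exceeded its spread between the dyes and the difference there rests on the probe used.

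*Slc40a1*, ferroportin, the iron exporter of the cell membrane, came close to the limit in ABH 1 week without passing it. Its level was −0.22 (Cy3) and −0.25 (Cy5) in the 10 weeks control and 0.26 and 0.32 in ABH 1 week, a log2 fold change of 0.53 ± 0.06 or 1.44-fold. At 4 weeks the value was 0.25 ± 0.05, and in NBH 1 week and NBH 4 weeks 0.00 ± 0.11 and 0.22 ± 0.08. *Cp* encodes ceruloplasmin, which oxidizes the exported iron for loading onto transferrin. Its level was −0.61 and −0.59 in the 10 weeks control and 0.08 and −0.09 in ABH 1 week, the highest of all pools. The log2 fold change was 0.60 ± 0.14, a mean of 1.51-fold, but with Cy5 alone it was 0.50, so that it was not called. In ABH 4 weeks, NBH 1 week and NBH 4 weeks it was 0.22 ± 0.17, 0.20 ± 0.19 and 0.04 ± 0.14. These were the genes nearest to the limit, with *Trf* the nearest above it. When arrays were scaled to their median in place of the 75th percentile, the median of all genes compared in ABH 1 week moved from −0.05 to 0.21. *Slc40a1* and *Cp* were then called as well, which made 5 of 8 genes, with 8.34% of all genes called higher and 1.55% lower.

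*Fth1* and *Ftl1*, the heavy and light chains of ferritin that store iron, have 1 probe each on the array, and both were saturated on all 16 arrays. Their signal could not rise further, and no fold change is given for either.

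**Figure D3:**
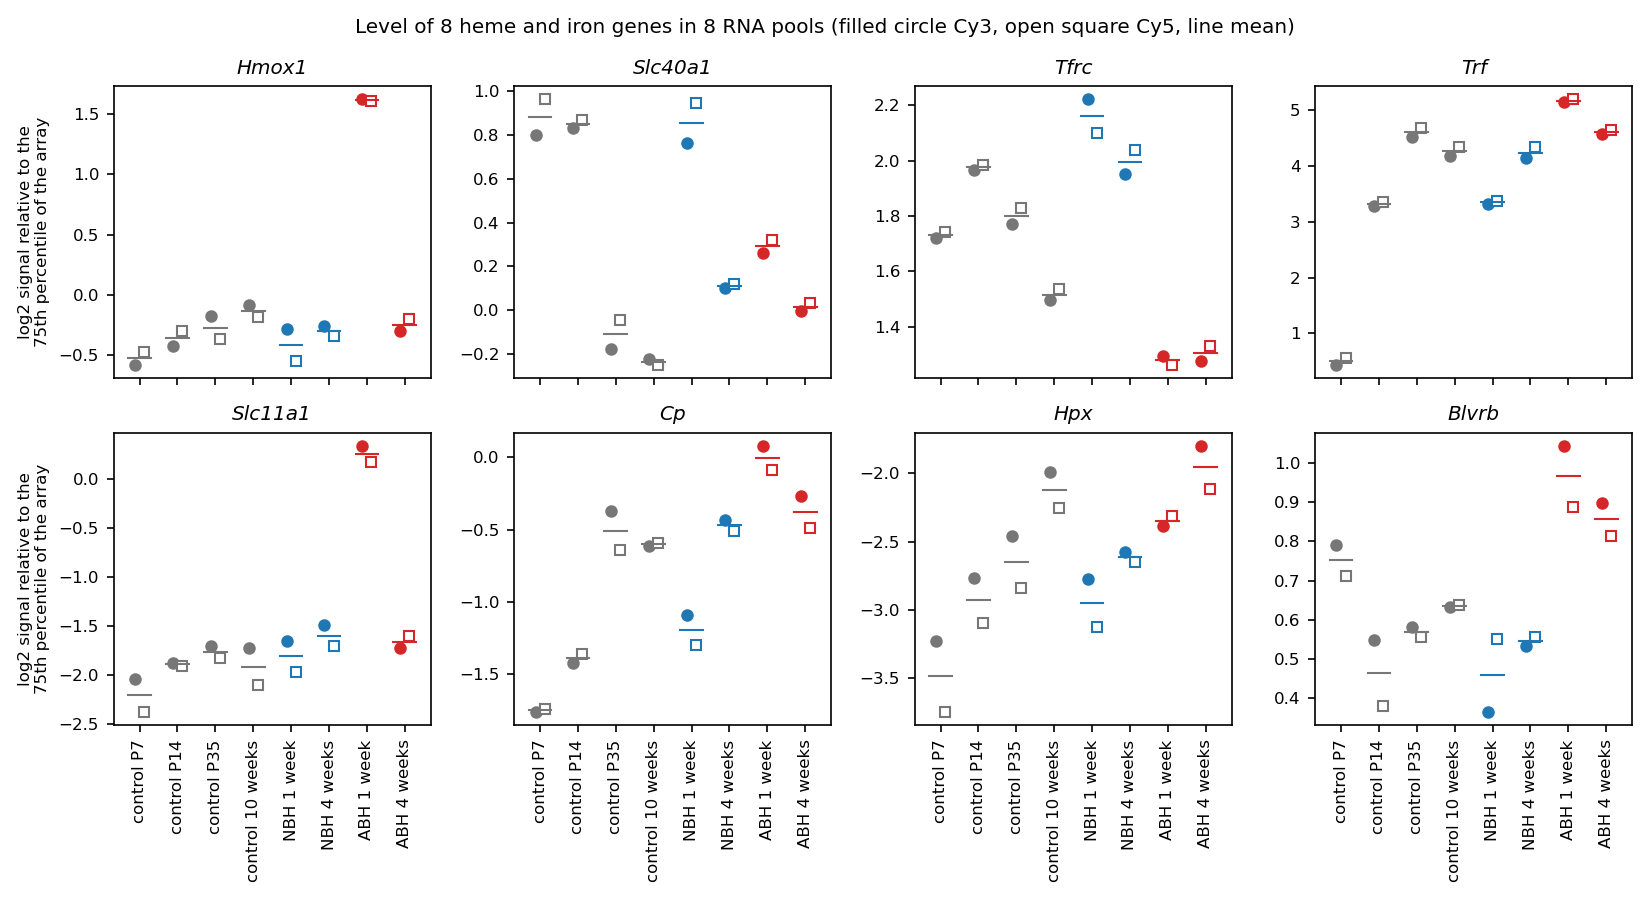
Level (log2 signal relative to the 75th percentile of the array, vertical axes with separate scales) of the 8 measured genes in the 8 pools, with controls in grey, NBH in blue and ABH in red, Cy3 as filled circles, Cy5 as open squares and the mean as a line. *Slc11a1* and *Hmox1* are high in ABH 1 week alone (means 0.26 and 1.61), *Tfrc* is lowest in the ABH pools, and *Trf*, *Cp* and *Hpx* are lowest in control P7.

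The range of the group in ABH 1 week can be read against all genes on the plot of their fold changes. Above *Slc11a1*, *Hmox1* and *Trf* lay 61, 140 and 475 of the 16310 genes compared. *Cp*, *Slc40a1* and *Blvrb* had 5.43%, 6.47% and 10.9% of the genes above them, and *Tfrc* and *Hpx* had 20.2% and 21.1% below them.

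**Figure D4:**
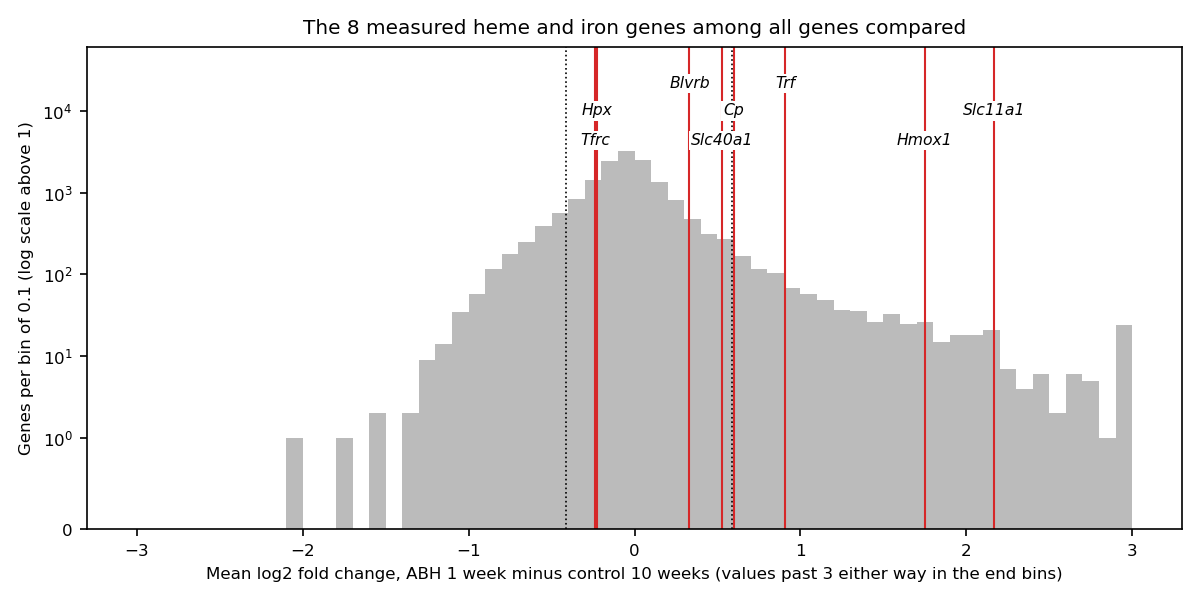
Number of genes (vertical axis, logarithmic above 1) by mean log2 fold change in ABH 1 week against the 10 weeks control (horizontal axis, bins of 0.1), without genes saturated in both pools, with the 8 measured genes as red lines and the limits for a call dotted. The genes spread from −0.24 (*Tfrc*) to 2.17 (*Slc11a1*), and the rest of all genes peak near 0.

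Most other genes of heme and iron metabolism stayed between the limits, as did most of all genes compared. The shares of all genes called were 4.73% higher and 5.73% lower in ABH 1 week. In the other comparisons they lay between 0.177% and 0.744% in either direction. These shares also stand beside the counts of marker genes below. Of 11 further genes of heme breakdown and heme transport 10 could be compared (*Cd163*, the hemoglobin scavenger receptor, did not pass the background filter in any comparison), and none was called in any of the 4 comparisons. In ABH 1 week their median log2 fold change was 0.09, with 0.03 ± 0.02 for *Hmox2*, the constitutive heme oxygenase, 0.12 ± 0.07 for *Blvra*, the other biliverdin reductase, and 0.58 ± 0.06 for *Hp*, haptoglobin, which binds free hemoglobin. None of 8 genes of heme synthesis, 5 of iron-sulfur cluster assembly and 3 of the iron regulatory proteins was called either. The heme synthesis genes counted here leave out *Alas2*, which is given below with the markers of blood and was called there.

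Of 10 genes of iron uptake and mitochondrial import, 2 rose in ABH 1 week, where 4.73% of all genes compared were called higher. *Cybrd1*, a ferric reductase, gave 1.61 ± 0.07, and *Lcn2*, lipocalin 2, which binds bacterial iron carriers, gave 0.80 ± 0.15. *Lcn2* also rose in NBH 1 week (0.97 ± 0.32), where it was the only gene called in these lists. Of 6 genes measured for iron storage, export and the hepcidin axis, 1 rose in ABH 1 week, *Hfe*, the membrane protein that modulates transferrin receptor function (0.98 ± 0.08). *Hamp*, *Hjv* and *Ftmt* did not pass the background filter. Of 11 genes for Nrf2, *Bach1* and their targets 1 rose in ABH 1 week, *Nfe2l2* itself, which encodes Nrf2 (0.95 ± 0.09), whereas *Bach1*, its opponent at heme-responsive genes, gave 0.47 ± 0.17 and *Nqo1*, a common Nrf2 target, 0.39 ± 0.00. No gene of these lists was called in NBH 4 weeks or ABH 4 weeks.

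Many markers of phagocytes and of blood rose in ABH 1 week, as *Slc11a1* and *Hmox1* did. Of 10 microglia and macrophage markers 7 rose in ABH 1 week, with a median log2 fold change of 1.06, among them *Tyrobp*, an adaptor of microglial receptors (2.31 ± 0.06), *C1qa*, a complement subunit (2.13 ± 0.04), *Trem2*, a lipid receptor (2.07 ± 0.15), and *Aif1*, the marker IBA1 (1.42 ± 0.03). *Itgam*, *P2ry12* and *Tmem119* of this list were not called. Of 10 genes listed as markers of border and infiltrating macrophages 7 rose, with a median of 2.31, led by *Gpnmb* (6.17 ± 0.01), *Spp1* (6.00 ± 0.08), *Lgals3* (5.57 ± 0.12) and *Ms4a7* (3.54 ± 0.12). The others of that list, *Mrc1*, *Lyve1* and *Ccr2*, were not called. Which type of phagocyte the RNA of the called genes came from was not tested. The log2 of the summed level of the first list was 4.98 to 5.88 in the other 7 pools and 6.92 in ABH 1 week, and that of the second list was 1.41 to 2.01 and 5.50.

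The other comparisons showed less of these markers. None of the microglia and macrophage markers was called in NBH 1 week, NBH 4 weeks or ABH 4 weeks, with medians of 0.09, 0.01 and 0.24. Of the second list, *Gpnmb* (1.16 ± 0.22), *Spp1* (0.99 ± 0.42) and *Lgals3* (0.79 ± 0.03) rose in NBH 1 week, the first 2 with a control that was well above background on 1 of its 2 arrays, where *Slc11a1* gave 0.08 and *Hmox1* −0.05. There *Mrc1*, *Lyve1*, *F13a1*, *Pf4*, *Ms4a7* and *Clec4n* were not called, and *Ccr2* was not compared. *Gpnmb* also rose in NBH 4 weeks (0.70 ± 0.08), as the single gene called of the 9 compared, and none was called in ABH 4 weeks.

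Red cells are the main source of heme in the body, and markers of blood were also higher. Of 5 erythroid markers measured, 4 rose in ABH 1 week, with *Alas2*, the erythroid enzyme of heme synthesis, at 2.11 ± 0.06 and *Hbb-bs*, a beta globin, at 1.98 ± 0.19. *Hba-a1* and *Hbb-bt* were saturated in that pool, so that their changes are lower bounds. In NBH 4 weeks 3 of the 5 rose, with *Alas2* at 0.88 ± 0.13 and *Hbb-bs* at 1.02 ± 0.10, while *Hmox1* and *Slc11a1* gave −0.03 and 0.16. In NBH 1 week none of the 5 was called, with a median log2 fold change of 0.55. In ABH 4 weeks 1 fell (*Hbb-bs*, −0.70 ± 0.33). The log2 of the summed level of this list was 5.48 to 6.32 in the controls, NBH 1 week and ABH 4 weeks, at least 6.72 in NBH 4 weeks, where *Hba-a1* was saturated, and at least 6.92 in ABH 1 week.

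Some astrocyte and meningeal markers rose in ABH 1 week as well. *Gfap*, the astrocyte filament protein, gave 2.95 ± 0.11 (1 of 7 astrocyte markers, median 0.46). It was called higher in ABH 4 weeks too (1 of 7, median 0.30). Of 8 markers of the leptomeninges 4 rose in ABH 1 week, led by *Col1a1* (4.62 ± 0.26) and *Lum* (2.46 ± 0.15), with *Dcn* and *Ogn*. *Slc6a13*, *Igf2*, *Aldh1a2* and *Slc22a6* of that list were not called. Of 8 endothelial markers none was called in any comparison. The part of these cells in the values of *Cp*, *Slc40a1*, *Slc11a1* and *Hmox1* was not tested.

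**Figure D5:**
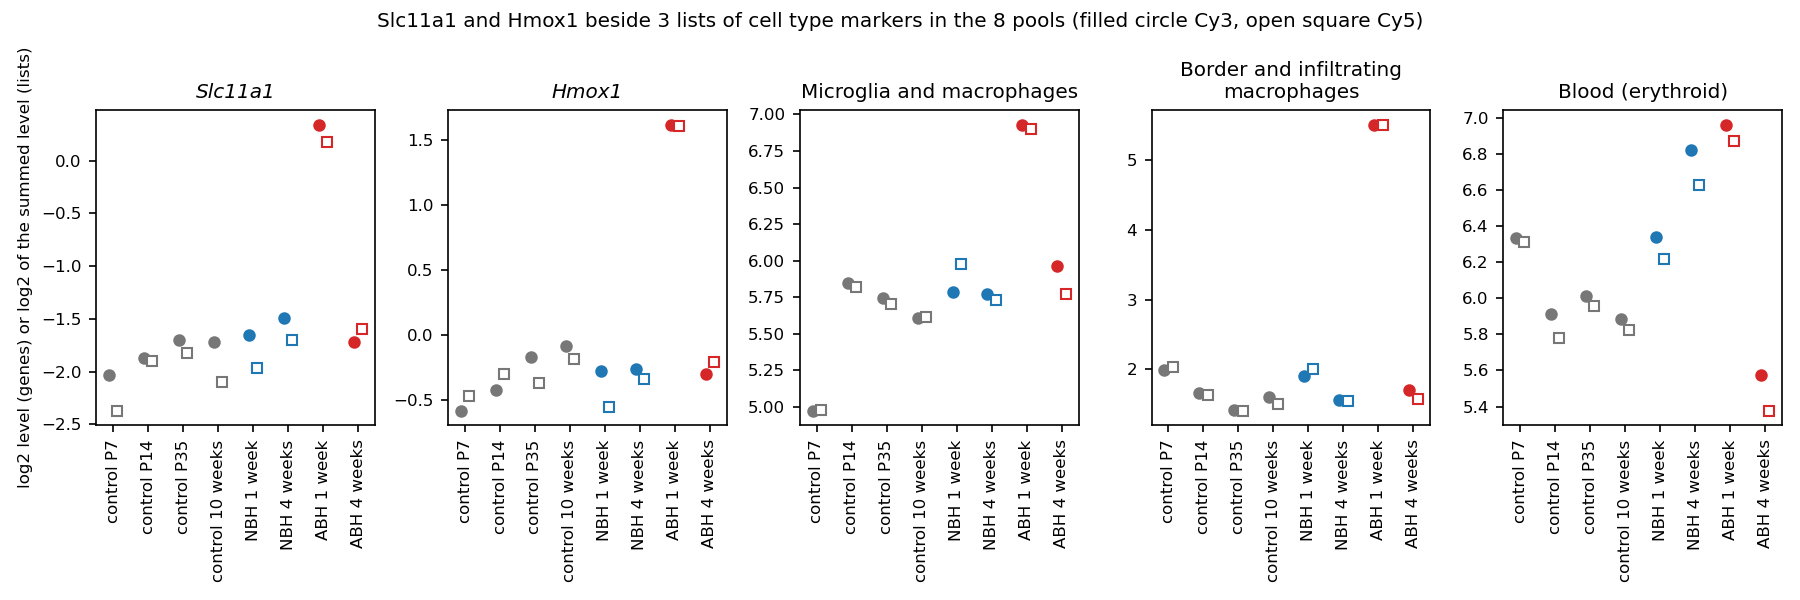
Level of *Slc11a1* and *Hmox1* and log2 of the summed level of 3 marker lists (vertical axes with separate scales) in the 8 pools, with controls in grey, NBH in blue and ABH in red, Cy3 as filled circles and Cy5 as open squares. The macrophage lists stand apart in ABH 1 week (6.92 and 5.50) as *Slc11a1* and *Hmox1* do, whereas the blood list, a lower bound where genes were saturated, is high in NBH 4 weeks (6.72) as well.

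The patterns over the 16 arrays were compared with those of 14086 other genes, as a description in which both arrays of a pool share their RNA. For *Slc11a1* the most alike genes were *Mpeg1* (Pearson r = 0.99), *Fcer1g* (0.99) and *Tyrobp* (0.98), and for *Hmox1* they were *Fcer1g* (0.98), *Tgfbi* (0.98) and *Mpeg1* (0.98). These values rest on the single pool that stood apart, since without ABH 1 week they were 0.84, 0.78 and 0.75 for *Slc11a1* and 0.71, 0.35 and 0.59 for *Hmox1*. *Trf* was most like *Galnt6* (0.99), *Nol3* (0.99) and *Cyp4f14* (0.99). *Slc40a1* was most like *Vcam1* (0.98), *Megf6* (0.97) and *Lbh* (0.97), and *Cp* was most like *Wnk1* (0.99), *Rida* (0.98) and *Aox1* (0.98). For the last 3 genes, the values without ABH 1 week were between 0.97 and 1.00. The levels of these genes differed with age, with *Trf* at 0.50 in control P7 and at 3.32 or more in all other pools. No r without control P7 was computed.

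Age moved several of these genes more than surgery did. From control P7 to the 10 weeks control 3 of the 8 genes rose and 1 fell, when 15.1% of the 16356 genes compared were called higher and 21.4% lower. *Trf* rose by 3.76 ± 0.03 on the log2 scale, or 13.6-fold, and most of it, 2.82 ± 0.04, lay between P7 and P14. *Cp* rose by 1.15 ± 0.00, of which 0.88 ± 0.24 lay between P14 and P35, and *Hpx* gave 1.37 ± 0.18, with control P7 well above background on 1 of its 2 arrays. *Slc40a1* fell by 1.12 on the log2 scale (SD 0.13), with 0.96 of it (SD 0.07) between P14 and P35. *Hmox1*, *Blvrb*, *Tfrc* and *Slc11a1* gave 0.39 ± 0.15, −0.12 ± 0.06, −0.22 ± 0.01 and 0.29 ± 0.03 from P7 to 10 weeks. The other *Hmox1* probe gave 0.79 ± 0.12 over this time, past the upper limit with both dyes and more than its 0.14 in ABH 1 week. *Tfrc* gave 0.25 ± 0.00 from P7 to P14, −0.18 ± 0.03 from P14 to P35 and −0.28 ± 0.01 from P35 to 10 weeks. In ABH 1 week and ABH 4 weeks its changes were −0.24 and −0.21. Both ABH pools were older than their control, so age and surgery cannot be told apart in these 2 values. At the probes used, the range of the control levels of *Slc11a1* and *Hmox1* was small beside the rise in ABH 1 week, whereas for *Slc40a1* the ABH 1 week level (0.29) lay between those of the adult control (−0.24) and control P14 (0.85).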

How the data were processed

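Right neocortex RNA of 8 pools was measured by the authors on Agilent mouse 8 × 60K arrays, 1 for Cy3 and 1 for Cy5 per pool, and quantified with Agilent Feature Extraction 11.0.1.1, whose headers name mm9. The deposited scanner tables hold spot intensities, namely the median signal and the median background in fluorescence units, and a processed signal. The deposited value table repeats the processed intensity of the labeled channel, not scaled between arrays, within 0.497% for values above 100.

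The median signal of the labeled channel was corrected for background by normexp (limma 3.58.1, R 4.3.3, offset 50), put on the log2 scale, and lowered by the 75th percentile of its array. Other steps used Python 3.11.15 with pandas 2.3.3. Spots marked as outliers (140 to 237 per array) and control spots were dropped. Probes were named by RefSeq accession (GRCm38.p6 table, names only), and a gene was represented by the probe with the highest mean signal among those least often saturated. A gene was compared where both arrays of the surgery pool or of the control were well above background. An array where it was not was held at the lowest signal above background, or at its own signal if higher. Differences were taken within a dye. The calling step was also run on simulated arrays with known changes put in and noise from the dye spread alone. This checked the calculation, and not the variation between animals, pools or chip rows.

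The genes and lists were chosen with earlier results of these data known. All 10 genes are named, and from the other heme and iron lists those called, with a few uncalled genes (*Hmox2*, *Blvra*, *Hp*, *Bach1*, *Nqo1*) added for their roles after their values were seen. From marker lists up to 4 called genes per list and comparison are named, and for likeness of pattern the 3 genes with the highest r. *Hbb-b1* and *Cd68* had no probe matched by accession. Each group is 1 pool, so no p-value was computed. The alternatives were 14 planned settings and 1 chosen after seeing the data.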

Additional observations from a re-analysis of the deposited data

Results flagged for a closer look

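In 7 cases a gene moved one way with both dyes in a surgery pool and the other way with both dyes in the pool it is set against. None of these differences was tested, since each pool is single. Between ABH and NBH, the change of *Tfrc* differed by −0.42 (log2) at 1 week and −0.41 at 4 weeks, that of *Trf* by 0.71 at 4 weeks, and that of *Blvrb* by 0.25 at 4 weeks, where the NBH value was −0.02. Between 1 and 4 weeks, the change of *Hmox1* differed by 1.87 in ABH, where the value at 4 weeks was −0.12, that of *Hpx* by −0.39 in ABH, and that of *Trf* by 0.39 in NBH, where the value at 1 week was 0.03.

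The channel without labeled RNA was well above background at a ferritin probe on 4 arrays of surgery pools, and not on the control array of the same dye. For *Fth1* this was the Cy5 array of NBH 1 week, with a median signal of 95.5 (95.0 in the control). For *Ftl1* the signals were 100.5 (Cy3) and 89.0 (Cy5) in ABH 1 week, against 82.0 and 93.0 in the control, and 84.0 (Cy3) in ABH 4 weeks, against 82.0. The labeled channel of the same spots was at 65497, where the scanner saturates. Signal in the channel without labeled RNA was not particular to surgery pools. At *Fth1* it was well above background on 2 arrays each of control P7, P35 and 10 weeks and on 1 of control P14. At *Ftl1* this held for 2 arrays of control P7 and 1 each of control P14 and P35.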

How the results depend on the processing

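*Slc11a1* and *Hmox1* were called higher in ABH 1 week under all 15 alternatives run, with 1.92 to 2.51 and 0.94 to 2.01 on the log2 scale. The lowest *Hmox1* value came from the mean over its probes. Its second probe alone was not among the alternatives, and it gave 0.14 in ABH 1 week and was not called. *Trf* kept its direction (0.56 to 1.17) but was not called with 2-fold limits, with the P35 control, with the brighter probe (saturated in ABH 1 week, so that the value is a lower bound), or with ABH 4 weeks as the reference, a setting added after seeing the data. With ABH 4 weeks as the reference, 2 genes were called.

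Of the counts of members called, the following moved. Median scaling gave 5 higher in ABH 1 week. The value table without scaling gave 1 lower in NBH 4 weeks (*Trf*). With the P35 control 1 gene was lower in ABH 1 week (*Tfrc*), and 1 was higher (*Hpx*) and 1 lower (*Tfrc*) in ABH 4 weeks. With Cy3 alone *Cp* was called too, so that the single dyes gave 3 to 4 higher genes in ABH 1 week. All other counts stayed at the reported value or within 1.5 times of it.

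The scaling and the dye moved the counts of all genes called. With 1 dye alone, 301 to 646 genes were higher and 264 to 655 lower in NBH 1 week, 161 to 249 and 294 to 367 in NBH 4 weeks, 982 to 1012 and 1290 to 2323 in ABH 1 week, and 247 to 574 and 211 to 939 in ABH 4 weeks. Median scaling gave 1361 higher and 253 lower in ABH 1 week, against 771 and 935. Without scaling, NBH 1 week gave 101 and 480 (reported 67 and 63), NBH 4 weeks 25 and 1243 (28 and 118), and ABH 4 weeks 52 and 494 (70 and 32), with medians over all genes of −0.13, −0.21 and −0.11. The mean-signal alternative was not run, since the tables used hold median signals. No paired analysis was possible because each group is 1 pool and its arrays differ by dye alone, with differences taken within a dye throughout.

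The pools are single, the dyes repeat the same RNA, and intensity limits what can be read. Saturation leaves ferritin unmeasured, *Hpx* lies near the background, and at 2 probes of *Hmox1* the values differ. Values under the limits for a call changed sign with the scaling for several genes.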
